A study of Mus musculus with 16 samples.

Results

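The 44 genes described here are a list of androgen response genes of the prostate, taken by name, and all 44 were found among the 21887 protein-coding genes of the mm10 gene table. Peaks from the 16 libraries were merged where they shared 1 bp or more, and a merged region belonged to a member when that gene's body was the nearest protein-coding gene body within 100 kb. This gave the members 437 of the 73249 regions assigned to a gene. The measure throughout is the number of a gene's regions that carried a peak call in a library, called regions for short. Of the 44 genes, 39 had at least 2 regions and were tested, among 11213 genes tested in all. Homer2, a synaptic scaffold gene, had 0 regions in every library. Idi1, Lman1 and Pgm3 had 1 region each, called in all 16 libraries, and Mak had 1 region, called in every library but SPOPmut DHT replicate 1.

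The libraries are ATAC-seq, in which a transposase cuts accessible DNA and inserts sequencing adapters, from mouse prostate organoids, cultures that keep prostate epithelial cells. They form 4 groups of 4 libraries: Control organoids given EtOH (the solvent ethanol; Control EtOH), Control organoids given 10 nM DHT (dihydrotestosterone; Control DHT), and SPOPmut organoids given either (SPOPmut EtOH and SPOPmut DHT). Every group carries the sgNT label, was grown in mouse organoid medium and was treated for 24 h in that medium lacking mEGF. SPOP is the substrate adaptor of a cullin ubiquitin ligase that is often mutated in prostate cancer. Which SPOP allele the mutants carry, what drives it, and the age or strain of the source mice are not given in the sources used here.

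Androgens act through the androgen receptor, a nuclear receptor that enters the nucleus when bound by DHT and binds DNA as a dimer, mostly at enhancers away from gene starts. In prostate epithelium its known target genes serve lipid and sterol synthesis, glycosylation and secretion, and ion and metabolite transport, and others encode kinases, transcription regulators and cytoskeletal proteins. Accessible chromatin near such a gene is where the receptor and other factors can bind, and does not by itself measure transcription.

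Most gene starts of the list were called in every library. RefSeq (GRCm38.p6, the mm10 build) gave promoters for 34 of the 44 members, with 42 starts, and 32 of these starts, at 27 genes, lay in a region called in all 16 libraries. Another 6 starts, at Herc3, Homer2, Hpgd, Lifr and Mak, lay in no called region, and 4 were called in some libraries. The Herc3 start lies inside the gene body, and the region over the gene's own upstream end (chr6:58831172-58832181) was called in all 16 libraries. The start of Steap4 was called in 4 of 4 Control libraries with EtOH and 4 of 4 with DHT, and in 0 of 8 SPOPmut libraries. The start of Iqgap2 was called in all 8 Control libraries, in 1 of 4 SPOPmut libraries with EtOH and in 0 of 4 with DHT. The other start of Lifr was called in 2 Control libraries with EtOH and no others, and the other start of Mak in all but 1 library, SPOPmut DHT replicate 1. The 250 bases upstream of the start are printed 5′ to 3′ for Steap4 and Iqgap2, whose starts lost the call in all or most SPOPmut libraries. They are also printed for Uap1, which holds an androgen half-site and is among the members that gained regions with DHT. Steap4 is on the plus strand (chr5:7960222-7960471), Iqgap2 on the minus strand (chr13:95891923-95892172) and Uap1 on the minus strand (chr1:170174965-170175214). Capitals mark the androgen half-site TGTTCT or AGAACA, the GC box GGGCGG or CCGCCC, and the CCAAT box CCAAT or ATTGG, each searched on both strands.
Steap4: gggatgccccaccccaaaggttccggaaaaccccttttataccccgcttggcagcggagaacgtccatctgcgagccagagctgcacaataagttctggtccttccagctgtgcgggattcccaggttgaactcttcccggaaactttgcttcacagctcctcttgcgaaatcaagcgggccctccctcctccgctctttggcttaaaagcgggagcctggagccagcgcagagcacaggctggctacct
Iqgap2: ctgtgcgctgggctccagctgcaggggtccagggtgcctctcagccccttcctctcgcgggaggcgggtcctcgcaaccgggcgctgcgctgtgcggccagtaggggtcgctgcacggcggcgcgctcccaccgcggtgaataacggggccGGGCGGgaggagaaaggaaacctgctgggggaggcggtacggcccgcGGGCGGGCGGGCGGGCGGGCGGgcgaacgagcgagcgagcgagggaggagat
Uap1: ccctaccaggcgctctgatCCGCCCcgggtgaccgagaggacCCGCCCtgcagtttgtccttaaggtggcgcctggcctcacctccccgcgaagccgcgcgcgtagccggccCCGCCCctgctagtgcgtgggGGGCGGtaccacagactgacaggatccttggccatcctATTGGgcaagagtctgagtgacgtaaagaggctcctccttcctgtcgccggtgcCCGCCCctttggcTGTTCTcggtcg

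These sequences differ in base composition. The Steap4 stretch holds 58.4% G and C, 12 CpG dinucleotides and none of the 3 motifs. That of Iqgap2 holds 75.2% G and C, 33 CpG and 6 GC boxes, with overlapping copies counted. That of Uap1 holds 67.2% G and C, 22 CpG, 5 GC boxes, 1 CCAAT box and 1 half-site, read TGTTCT, 12 bases before the start. Over all 32851 promoters in the RefSeq table the medians over the same 250 bases were 52.4% G and C and 6 CpG. In the table's window of 300 bases, the last 50 of them downstream of the start, a half-site occurred in 18.97% of those promoters and in 3 of the 42 member starts, at Abcc4, Hmgcs1 and Uap1. The full element, AGAACA followed by any 3 bases and TGTTCT, which reads the same on both strands, occurred in 3 of the 32851 and in 0 of the members. A GC box occurred in 35.7% of all promoters and 31 of 42 member starts, and a CCAAT box in 37.4% and 16 of 42. A match is a description of letters, not a binding site.

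Across the list, called regions differed between genotypes at more members than between treatments, and in both directions. Of the 39 tested members, 11 had more called regions in SPOPmut than in Control, against 19.4% of all genes tested, and 6 had fewer, against 12.1%. Together the 17 members make 43.6% of those tested, where 31.5% of all genes passed. The members were proposed with results of these data known, so shares of the list beside a background are descriptions. DHT raised called regions at 5 members, against 5.41% of all genes, and lowered them at 1, against 3.14%. These 6 make 15.4% of the members, and the background was 8.55%. The backgrounds were not matched for the number of regions a gene holds. Per single region, 8.7% of member regions passed for genotype, against 6.99% of all regions. For DHT 1.14% of member regions passed, against 1.77%. The 5 members that rose with DHT were B4galt1, Hpgd, Stk39, Dbi and Uap1, and the 1 that fell was Ndrg1. Without Control EtOH replicate 2, Control DHT replicate 3 or SPOPmut EtOH replicate 4, 2 members were lower with DHT. With replicate number as a block, 11 members passed for genotype and 0 for DHT, where the smallest possible exact p was 0.00781. The labels do not say whether the numbers pair the libraries. The tests are exact two-sided permutation tests over the 16 libraries within the other factor, with Benjamini-Hochberg adjustment over all 11213 genes, called at an adjusted p under 0.05. At an unadjusted p under 0.05, 22 members passed for genotype, against 41.2% of all genes, and 11 for DHT, against 23.3%.

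The split between rises and falls depended on scaling. When each count was taken as a share of its library's called regions, 29 members passed for genotype, 13 higher and 16 lower, and 12 for DHT, 6 higher and 6 lower. After subtraction of what each chromosome's call rate predicts, 20 passed for genotype, 11 higher and 9 lower, and again 12 for DHT with 6 in each direction. No share over all genes is given for either scaling, and the 31.5% and 8.55% above are for unscaled counts. The correction takes the chromosome's rate times the gene's regions from each count. A gene with steady counts thus takes on its chromosome's shift with the opposite sign. Krt5, a basal marker gene with 3 called regions in all 16 libraries, passed for genotype at -0.427 (exact adjusted p = 0.00201). None of the 23 gene calls described here changed direction under either scaling. Some differences that had not passed reversed under the chromosome correction, among them the genotype differences at Abcc4 and Pmepa1. The median member differed by 0.125 called regions between genotypes and by -0.125 between treatments, and the median over all genes tested was 0 for both.

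**Figure D1:**
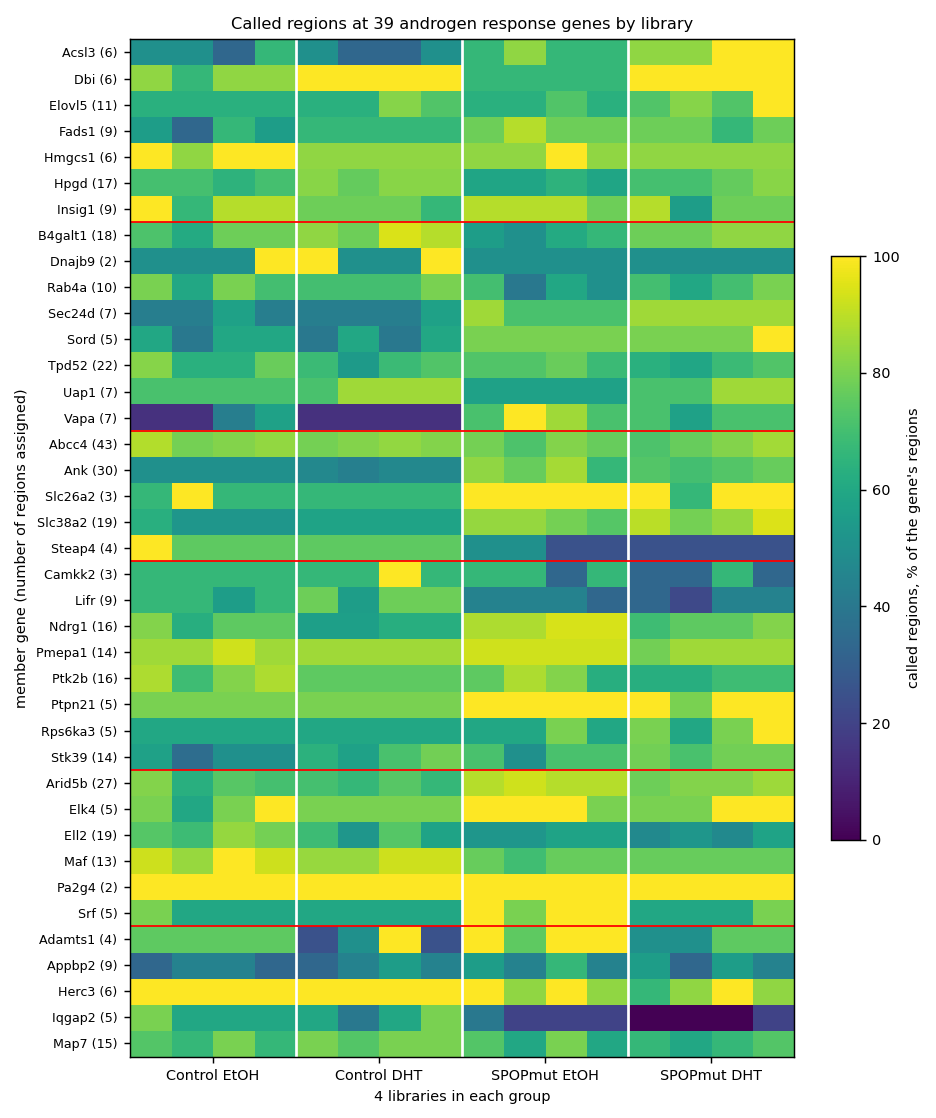
Called regions of the 39 tested members in each of the 16 libraries, as a percentage of the regions assigned to the gene (number in parentheses), with columns ordered by group and red lines between role groups. Ank and Slc38a2 are brighter in all 8 SPOPmut libraries than in any Control library, and Steap4 and Lifr are darker. Within each treatment Vapa is brighter and Iqgap2 darker in SPOPmut, while Dbi reaches all 6 of its regions in the 8 DHT libraries.

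**Figure D2:**
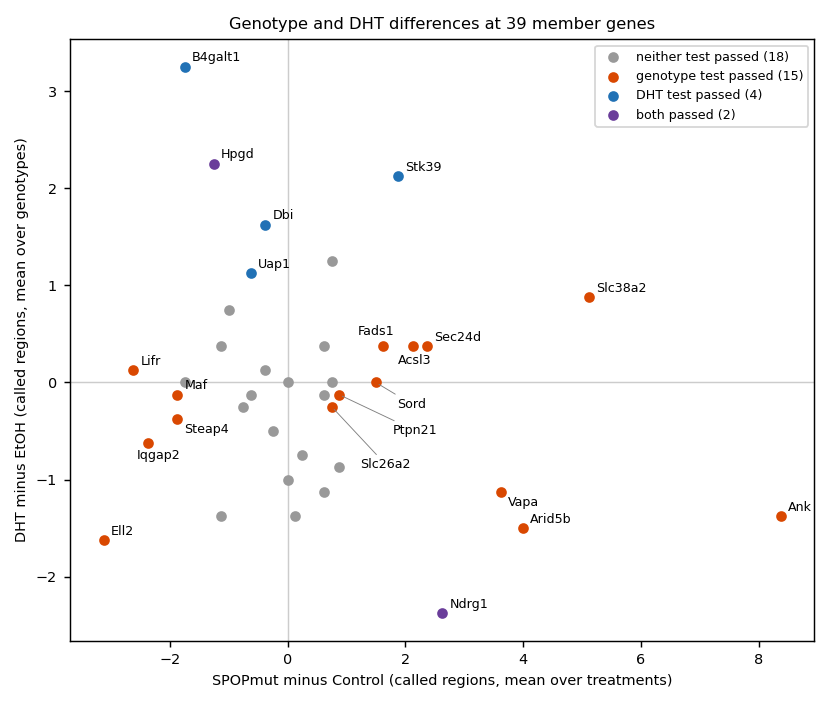
Difference between genotypes (x axis, called regions, SPOPmut minus Control) against difference between treatments (y axis, called regions, DHT minus EtOH) for the 39 tested members, coloured by which test passed. Ank lies farthest to the right at 8.375, and the 2 genes that passed both tests, Hpgd and Ndrg1, moved in opposite directions under each factor.

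Lipid and sterol genes make up 8 members, of which 7 were tested. In SPOPmut 2 were higher (19.4% of all genes) and 1 lower (12.1%). With DHT 2 were higher (5.41%), and the others did not pass. Together they held 45.8 ± 3.30 called regions in Control EtOH, 48.8 ± 1.26 in Control DHT, 47 ± 1.83 in SPOPmut EtOH and 52.8 ± 2.99 in SPOPmut DHT (mean ± SD, n = 4 each). Hpgd, which inactivates prostaglandins, and Dbi, which binds acyl-CoA, gained regions with DHT, and Acsl3 and Fads1, which activate and desaturate fatty acids, gained them in SPOPmut.

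Hpgd (gene 15446, chromosome 8, 56294552 to 56321046) had 12, 12, 11 and 12 called regions in Control EtOH and 14, 13, 14 and 14 in Control DHT. In SPOPmut it had 10, 10, 11 and 10 with EtOH and 12, 12, 13 and 14 with DHT. Treatments did not overlap in either genotype, and within EtOH the genotypes met at 11. Hpgd rose by 2.25 called regions with DHT (exact adjusted p = 0.0119) and was 1.25 lower in SPOPmut (exact adjusted p = 0.0358). The DHT call rested on regions far from the gene: within 25 kb the difference was 0.25. The genotype call was lost after the chromosome correction (-0.515, exact adjusted p = 0.143), and the share of called regions on chromosome 8 as a whole fell by 8.83% in SPOPmut. That call held in 3 of 9 alternative settings. It was also lost with all merged regions (-1.125), the 30000 strongest peaks (-0.375) and replicate number as a block. Within 10 kb of the gene body the genotype difference was 0, and within 25 kb Hpgd was 0.50 higher in SPOPmut. Its DHT-gained region lay 69919 bp outside the gene body (chr8:56390801-56391130), was called in 0 of 8 EtOH and 8 of 8 DHT libraries, and stood at percentile 12.9 of −log10 p within the libraries that called it, where 100 is the strongest peak.

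Dbi (gene 13167, chromosome 1, 120113280 to 120121096) had 5, 4, 5 and 5 called regions in Control EtOH and 4 in every SPOPmut library with EtOH. In all 8 DHT libraries it had 6, which is every region it has. The treatments did not overlap in either genotype, and the rise was 1.625 called regions (exact adjusted p = 0.0119). A gained region of Dbi, called in 0 of 8 EtOH and 8 of 8 DHT libraries, lay 861 bp from the gene body (chr1:120112120-120112719) and was a weak peak, at percentile 10.0. Among the 30000 strongest peaks of each library the Dbi count did not differ between treatments, with a difference of 0.

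Acsl3 (gene 74205, chromosome 1, 78657825 to 78707743) had 3, 3, 2 and 4 called regions in Control EtOH and 3, 2, 2 and 3 in Control DHT. In SPOPmut it had 4, 5, 4 and 4 with EtOH and 5, 5, 6 and 6 with DHT. The genotypes met at 4 in EtOH and were apart in DHT, and the rise was 2.125 (exact adjusted p = 0.0098). Its strongest gained region lay 17211 bp outside the gene body (chr1:78724524-78725384) and was called in 1 of 8 Control and 8 of 8 SPOPmut libraries. The region over the Acsl3 start itself was called in all 16 libraries and is assigned to an overlapping gene, Utp14b.

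Fads1 (gene 76267, chromosome 19, 10182877 to 10196874) had 5, 3, 6 and 5 called regions in Control EtOH and 6 in each of the 4 Control libraries with DHT. In SPOPmut it had 7, 8, 7 and 7 with EtOH and 7, 7, 6 and 7 with DHT. The genotypes were apart in EtOH and shared the value 6 in DHT, and the rise was 1.625 (exact adjusted p = 0.0102). A region 23739 bp outside the gene body (chr19:10158764-10159513) was called in 0 of 8 Control and 7 of 8 SPOPmut libraries. Within 10 kb of the gene body the Fads1 difference was 0.375 (exact adjusted p = 0.543). The other tested lipid genes, the elongase gene Elovl5, the sterol synthesis gene Hmgcs1 and the sterol sensor gene Insig1, passed neither test, and group means were 7 to 9 for Elovl5, 5 to 5.75 for Hmgcs1 and 6.75 to 7.75 for Insig1.

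Sugar metabolism, glycosylation and secretory pathway genes make up 10 members, 8 of them tested. In SPOPmut 3 were higher (19.4% of all genes) and 0 lower (12.1%). With DHT 2 were higher (5.41%) and 0 lower (3.14%). The COPII coat gene Sec24d, the membrane contact gene Vapa and the sorbitol dehydrogenase gene Sord gained regions in SPOPmut. B4galt1, a Golgi galactosyltransferase, and Uap1, which makes the nucleotide sugar used for N-acetylglucosamine transfer, gained regions with DHT. The group held 52.5 ± 5.20 called regions in Control EtOH, 53.2 ± 3.77 in Control DHT, 54 ± 1.83 in SPOPmut EtOH and 59.5 ± 3.87 in SPOPmut DHT (mean ± SD, n = 4 each).

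B4galt1 (gene 14595, chromosome 4, 40804602 to 40853984) had the largest DHT difference of the members, 3.25 called regions (exact adjusted p = 0.0256). Its counts were 13, 11, 14 and 14 in Control EtOH, 15, 14, 17 and 16 in Control DHT, 10, 9, 11 and 12 in SPOPmut EtOH, and 14, 14, 15 and 15 in SPOPmut DHT. The treatments met at 14 in Control and were apart in SPOPmut. The strongest DHT-gained region of the whole list lay in its gene body, 39479 bp downstream of the start (chr4:40813629-40815381). It is 1753 bp wide, was called in 0 of 8 EtOH and 8 of 8 DHT libraries, and stood at percentile 65.4. The B4galt1 call was lost when a peak had to cover at least 50% of the region (2.125, exact adjusted p = 0.151).

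Uap1 (gene 107652, chromosome 1, 170141223 to 170174964) had 5 called regions in each Control library with EtOH and 5, 6, 6 and 6 with DHT. SPOPmut had 4 in each library with EtOH and 5, 5, 6 and 6 with DHT. The treatments met at 5 in Control and were apart in SPOPmut, and the rise was 1.125 (exact adjusted p = 0.0288). Among the 30000 strongest peaks of each library the sign was the opposite (-0.625, exact adjusted p = 0.115), and with lists of equal length the Uap1 call was lost (0.50, exact adjusted p = 0.383). The Uap1 start, whose upstream sequence is printed above, was called in all 16 libraries, so the gained calls were elsewhere.

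Sec24d (gene 69608, chromosome 3, 123264801 to 123365641) had 3, 3, 4 and 3 called regions in Control EtOH, 3, 3, 3 and 4 in Control DHT, 6, 5, 5 and 5 in SPOPmut EtOH, and 6 in each SPOPmut library with DHT. Vapa (gene 30960, chromosome 17, 65580053 to 65616462) had 1, 1, 3 and 4 in Control EtOH, 1 in each Control library with DHT, 5, 7, 6 and 5 in SPOPmut EtOH, and 5, 4, 5 and 5 in SPOPmut DHT. Sord (gene 20322, chromosome 2, 122234839 to 122265337) had 3, 2, 3 and 3, then 2, 3, 2 and 3 in Control, and 4 in each EtOH library and 4, 4, 4 and 5 with DHT in SPOPmut. At all 3 genes the genotypes did not overlap under either treatment. The rises were 2.375 at Sec24d, 3.625 at Vapa and 1.5 at Sord, each with exact adjusted p = 0.00325. Chromosome 2, which carries Sord, held 19.9% more of the called regions in SPOPmut, and beyond that shift the Sord difference was 0.73 and still passed. Among the 30000 strongest peaks the Sec24d difference was 0.50 and its call was lost (exact adjusted p = 0.0695). A region 4932 bp outside Sec24d (chr3:123259431-123260308) was called in 1 of 8 Control and 8 of 8 SPOPmut libraries.

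The vesicle protein gene Tpd52, with the most regions of this group, passed neither test: its counts were 14 to 18 in Control EtOH, 12 to 16 in Control DHT, 15 to 17 in SPOPmut EtOH and 13 to 16 in SPOPmut DHT. Single regions of Tpd52 did differ, and one in its gene body (chr3:8956802-8957255) was called in 0 of 8 Control and 8 of 8 SPOPmut libraries. The endoplasmic reticulum cochaperone gene Dnajb9 and the endosomal GTPase gene Rab4a also passed neither test, with group means of 1 to 1.5 and 5.5 to 7.25 called regions.

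Of 5 transport genes tested, 3 had more called regions in SPOPmut (19.4% of all genes), 1 had fewer (12.1%) and 1 did not pass, and for DHT 0 passed (8.55%). The group held 66.8 ± 2.87 and 64.8 ± 0.957 called regions in Control EtOH and DHT, and 76.5 ± 4.36 and 76.2 ± 4.35 in SPOPmut (mean ± SD, n = 4 each), and the larger rises were those of Ank and Slc38a2, both on chromosome 15. Ank encodes a pyrophosphate and ATP transporter, Slc38a2 a neutral amino acid transporter, Slc26a2 a sulfate transporter, Steap4 a metalloreductase and Abcc4 an efflux pump.

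Ank (gene 11732, chromosome 15, 27466677 to 27594909) had the largest genotype difference of the list. It had 15 called regions in each Control library with EtOH and 14, 13, 14 and 14 with DHT, and in SPOPmut 25, 23, 26 and 20 with EtOH and 22, 21, 22 and 23 with DHT. Every SPOPmut library was above every Control library. The difference was 8.375 (exact adjusted p = 0.00325), and 4.11 beyond the shift of chromosome 15, which held 17.6% more of the called regions in SPOPmut. Of its 30 regions, 10 were called in all 16 libraries, and 3 passed the region test, all higher in SPOPmut. The strongest of these lay in the gene body, 116500 bp from the start (chr15:27582973-27583381), and was called in 0 of 8 Control and 8 of 8 SPOPmut libraries.

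Slc38a2 (gene 67760, chromosome 15, 96687392 to 96699728) had 12, 10, 10 and 10 called regions in Control EtOH and 11 in each Control library with DHT. In SPOPmut it had 16, 16, 15 and 14 with EtOH and 17, 15, 16 and 18 with DHT. The genotypes did not overlap, and the difference was 5.125 (exact adjusted p = 0.00325), or 2.42 beyond the shift of chromosome 15. Slc26a2 (gene 13521, chromosome 18, 61196854 to 61211596) rested on a single region: 2, 3, 2 and 2 in Control EtOH, 2 in each with DHT, 3 in each SPOPmut library with EtOH and 3, 2, 3 and 3 with DHT. Its genotypes shared values under both treatments, and the difference was 0.75 (exact adjusted p = 0.0358). The Slc26a2 call was lost with lists of equal length (0.375, exact adjusted p = 0.439), the 30000 strongest peaks (0, exact adjusted p = 1) and 50% of a region covered (0.50, exact adjusted p = 0.333).

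Steap4 (gene 117167, chromosome 5, 7960472 to 7982213) fell in SPOPmut. It had 4, 3, 3 and 3 called regions in Control EtOH and 3 in each with DHT, and 2, 2, 1 and 1 in SPOPmut EtOH and 1 in each with DHT. The genotypes did not overlap, and the difference was -1.875 (exact adjusted p = 0.00325). The region over its start (chr5:7959905-7960923), which contains the sequence printed above, stood at percentile 73.1 in the 8 Control libraries that called it, the highest of the member regions named for a genotype difference. Abcc4 (gene 239273, chromosome 14, 118482692 to 118707856), with 43 regions the member with the most, did not pass: counts were 34 to 38 in Control EtOH, 34 to 36 in Control DHT, 31 to 35 in SPOPmut EtOH and 31 to 37 in SPOPmut DHT. The difference at Abcc4 was -1.75 (exact adjusted p = 0.213), and relative to chromosome 14, whose share of called regions fell by 15.5% in SPOPmut, it was 2.31 higher and passed (exact adjusted p = 0.0151). That pass is partly built in, since the correction gives a gene with steady counts its chromosome's shift with the opposite sign.

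**Figure D3:**
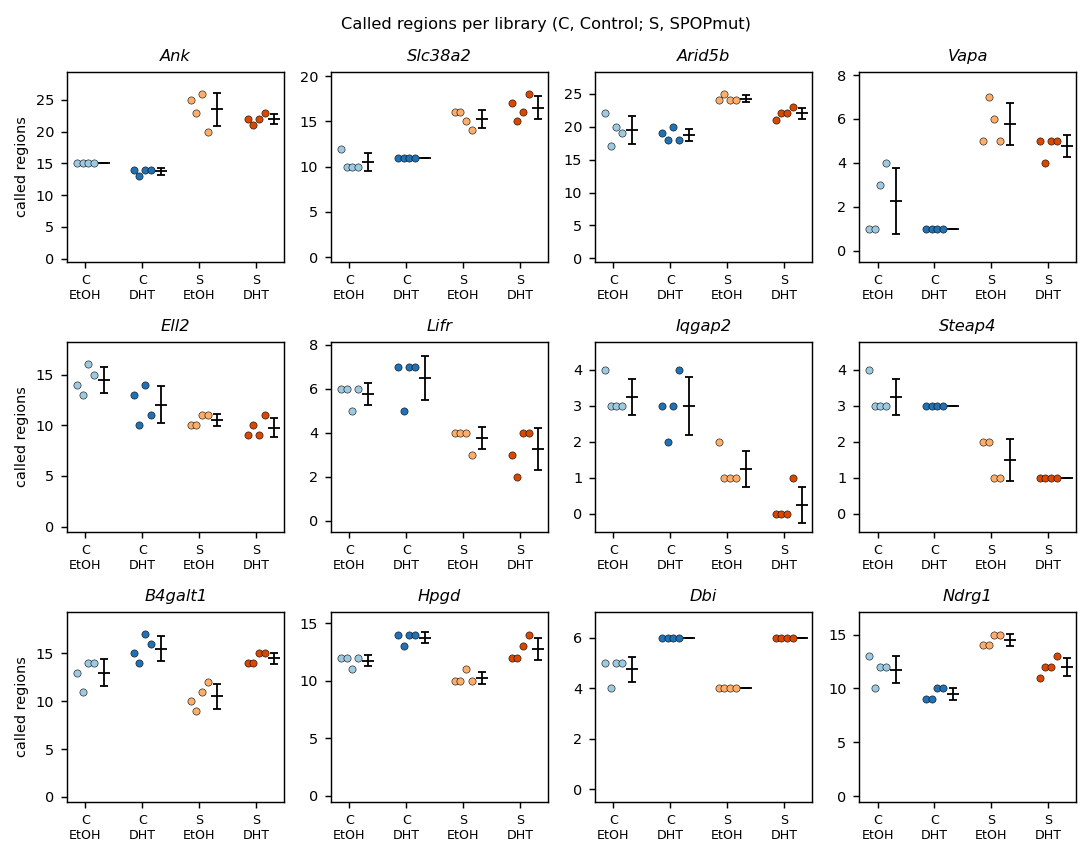
Called regions per library (y axis) for 12 members in the 4 groups, with each library as a point and the mean ± SD of 4 libraries beside it. Ank, Slc38a2, Arid5b and Vapa are higher in SPOPmut, Ell2, Lifr, Iqgap2 and Steap4 are lower, B4galt1, Hpgd and Dbi are higher with DHT, and Ndrg1 is lower with DHT and higher in SPOPmut.

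Kinases, receptors and signalling genes make up 10 members, 8 tested. In SPOPmut 2 were higher (Ndrg1 and Ptpn21, 19.4% of all genes) and 1 lower (Lifr, 12.1%). With DHT 1 was higher (Stk39, 5.41%) and 1 lower (Ndrg1, 3.14%). The group sums did not separate, at 59.5 ± 3.87 called regions in Control EtOH, 59.8 ± 2.87 in Control DHT, 63.8 ± 1.71 in SPOPmut EtOH and 59 ± 4.08 in SPOPmut DHT (mean ± SD, n = 4 each).

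Ndrg1 (gene 17988, chromosome 15, 66929318 to 66969641), a stress and androgen responsive gene, had 13, 10, 12 and 12 called regions in Control EtOH and 9, 9, 10 and 10 with DHT, and 14, 14, 15 and 15 in SPOPmut EtOH and 11, 12, 12 and 13 with DHT. It fell by 2.375 with DHT (exact adjusted p = 0.0256), with the treatments apart in SPOPmut and meeting at 10 in Control. It was 2.625 higher in SPOPmut (exact adjusted p = 0.00325), with no overlap under either treatment. The genotype call was lost after the chromosome correction (0.349, exact adjusted p = 0.382). Among the 30000 strongest peaks of each library both Ndrg1 calls were lost, at -0.875 for DHT (exact adjusted p = 0.168) and 0.125 for genotype (exact adjusted p = 1). An Ndrg1 gene body region (chr15:66949673-66950013) was called in 1 of 8 Control and 8 of 8 SPOPmut libraries.

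Lifr (gene 16880, chromosome 15, 7090610 to 7197489), the receptor for leukemia inhibitory factor, fell in SPOPmut although it lies on chromosome 15. It had 6, 6, 5 and 6 called regions in Control EtOH and 7, 5, 7 and 7 with DHT, and 4, 4, 4 and 3 in SPOPmut EtOH and 3, 2, 4 and 4 with DHT. The genotypes did not overlap, and the difference was -2.625 (exact adjusted p = 0.00325), or -3.91 relative to its chromosome. Within the Lifr gene body and 10 kb either side it was -0.875 and the call was lost (exact adjusted p = 0.0601). Ptpn21 (gene 24000, chromosome 12, 98676741 to 98737613), a tyrosine phosphatase gene, had 4 called regions in all 8 Control libraries and 5 in all SPOPmut libraries but 1, which had 4. That difference of 0.875 (exact adjusted p = 0.0102) concerns 1 region, and among the 30000 strongest peaks its sign was the opposite (-0.875, exact adjusted p = 0.028).

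Stk39 (gene 53416, chromosome 2, 68210445 to 68472108), a kinase that acts on ion cotransporters, had 8, 5, 7 and 7 called regions in Control EtOH and 9, 8, 10 and 11 with DHT, and 10, 7, 10 and 10 in SPOPmut EtOH and 11, 10, 11 and 11 with DHT. The treatments met at 8 in Control and at 10 in SPOPmut. The rise with DHT was 2.125 (exact adjusted p = 0.0417), and leaving out 1 library at a time lost the call for 8 of the 16, with exact adjusted p up to 0.0683. The Stk39 call was also lost with all merged regions (2.375, exact adjusted p = 0.0592) and within 10 kb of the gene body (exact adjusted p = 0.051). Those 8 were Control EtOH replicates 3 and 4, Control DHT replicates 1, 3 and 4, and SPOPmut DHT replicates 1, 3 and 4. Single regions in the Stk39 gene body separated completely by treatment (chr2:68371854-68372408, 0 of 8 EtOH and 8 of 8 DHT libraries, percentile 47.4) or nearly so by genotype (chr2:68381960-68383327, 0 of 8 Control and 7 of 8 SPOPmut libraries).

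The other tested signalling members passed neither test. Ptk2b, a focal adhesion kinase relative, had 11 to 14 called regions in Control EtOH, 12 in each with DHT, 10 to 14 in SPOPmut EtOH and 10 to 11 in SPOPmut DHT. Group means were 1.25 to 2.25 for Camkk2, a calmodulin-dependent kinase kinase gene, 11.8 to 13 for Pmepa1, an inhibitor of TGF-beta signalling, and 3 to 4 for Rps6ka3, a ribosomal S6 kinase gene. The genotype difference at Pmepa1 was 0.25. Relative to chromosome 2 it was -1.90 and passed (exact adjusted p = 0.00201), under the limit of that correction given above.

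Transcription and growth genes are 6 members, all tested. In SPOPmut 1 was higher (19.4% of all genes) and 2 were lower (12.1%), and 0 passed for DHT (8.55%). Arid5b encodes a DNA-binding protein of the ARID family, Ell2 a transcription elongation factor and Maf a leucine zipper transcription factor. The group held 55.2 ± 4.27 called regions in Control EtOH, 51.2 ± 2.99 in Control DHT, 56 ± 0.816 in SPOPmut EtOH and 51.5 ± 2.52 in SPOPmut DHT (mean ± SD, n = 4 each).

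Arid5b (gene 71371, chromosome 10, 68092523 to 68279355) had 22, 17, 20 and 19 called regions in Control EtOH and 19, 18, 20 and 18 with DHT, and 24, 25, 24 and 24 in SPOPmut EtOH and 21, 22, 22 and 23 with DHT. The genotypes did not overlap within a treatment, and the rise of 4.0 (exact adjusted p = 0.00325) was 5.07 relative to its chromosome. With lists of equal length the Arid5b call was lost (1.375, exact adjusted p = 0.169). The count did not pass for DHT, yet 1 Arid5b gene body region (chr10:68101128-68101625, percentile 38.7) was called in 0 of 8 EtOH and 8 of 8 DHT libraries.

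Ell2 (gene 192657, chromosome 13, 75707484 to 75772361) had 14, 13, 16 and 15 called regions in Control EtOH and 13, 10, 14 and 11 with DHT, and 10, 10, 11 and 11 in SPOPmut EtOH and 9, 10, 9 and 11 with DHT. The genotypes were apart in EtOH and overlapped in DHT. The difference was -3.125 called regions (exact adjusted p = 0.0102), or -1.77 relative to chromosome 13, whose share of called regions fell by 12.5% in SPOPmut. The Ell2 call was lost within 25 kb of the gene (-1.625), within 10 kb of its body (-0.625) and among the 30000 strongest peaks (-0.25), with exact adjusted p of 0.0923, 0.407 and 0.872. Maf (gene 17132, chromosome 8, 115703253 to 115706894) had 12, 11, 13 and 12 in Control EtOH and 11, 11, 12 and 12 with DHT, and 10, 9, 10 and 10 in SPOPmut EtOH and 10 in each with DHT. Its genotypes did not overlap, and the difference was -1.875 (exact adjusted p = 0.00325), but among the 30000 strongest peaks Maf differed by 0.25 (exact adjusted p = 0.718). Elk4 (an ETS factor gene), Pa2g4 (a growth regulator gene) and Srf (serum response factor) passed neither test, with group means of 4 to 4.75, 2 in every group, and 3 to 4.75 called regions.

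Cytoskeleton, matrix and protein turnover genes are 5 members, all tested. In SPOPmut 0 were higher (19.4% of all genes) and 1 was lower (12.1%), and 0 were called for DHT (8.55%). Iqgap2 (gene 544963, chromosome 13, 95627177 to 95892280), a scaffold protein of the actin cytoskeleton, had 4, 3, 3 and 3 called regions in Control EtOH and 3, 2, 3 and 4 with DHT. In SPOPmut it had 2, 1, 1 and 1 with EtOH and 0, 0, 0 and 1 with DHT. The genotypes did not overlap within a treatment, and the difference was -2.375 (exact adjusted p = 0.00325). The region over its start (chr13:95891614-95892333), which holds the GC-rich sequence printed above, stood at percentile 32.9. The microtubule-binding gene Map7 did not pass, with 10 to 12 called regions in Control EtOH, 11 to 12 in Control DHT, 9 to 12 in SPOPmut EtOH and 9 to 11 in SPOPmut DHT. The protease gene Adamts1, the trafficking gene Appbp2 and the ubiquitin ligase gene Herc3 passed neither test, with group means of 2 to 3.75, 3.5 to 4.75 and 5 to 6. A region 9874 bp outside Appbp2 (chr11:85244719-85245270) was called in 0 of 8 Control and 8 of 8 SPOPmut libraries.

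**Figure D4:**
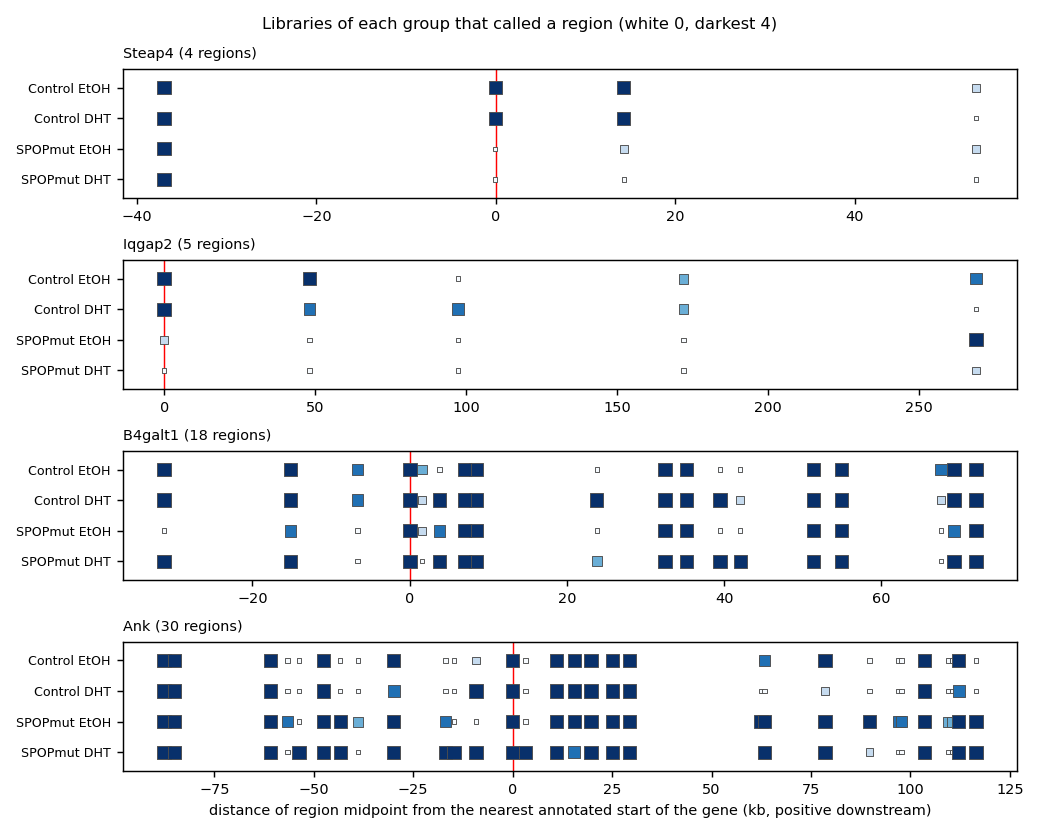
Regions of Steap4, Iqgap2, B4galt1 and Ank by distance of the region's midpoint from the nearest annotated start (x axis, kb), with square size and shade giving how many of the 4 libraries of each group called the region (white 0, darkest 4) and the red line the start. Steap4 lost the call at the start in every SPOPmut library and Iqgap2 in all but 1, which was given EtOH. The starts of B4galt1 and Ank were called in all 16 libraries and the changes lay away from them.

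Within single treatments, 9 members had more called regions in every SPOPmut library than in any Control library with EtOH (13.1% of all genes), and 6 had fewer (8.71%). With DHT these were 8 (16% of all genes) and 5 (8.53%). DHT libraries lay above all EtOH libraries at 2 members in Control, Hpgd and Dbi (5.16% of all genes), and at 4 in SPOPmut, Hpgd, Dbi, Uap1 and B4galt1 (9.14%). They lay below at 1 member in Control, Ank (4.44%), and at 3 in SPOPmut, Ndrg1, Arid5b and Pmepa1 (4.53%). Of the members tested, these are 5.13% and 10.3% above and 2.56% and 7.69% below, near those backgrounds. Leaving out 1 library moved them: without Control EtOH replicate 1 or Control DHT replicate 2, 4 or 5 members lay above in Control, without Control EtOH replicate 2 or Control DHT replicate 3, 5 or 2 lay below, and without SPOPmut EtOH replicate 2 or SPOPmut DHT replicate 4, 5 lay below in SPOPmut. With 4 libraries against 4 the smallest exact permutation p is 0.0286, so no member could pass correction over all genes there.

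Whether DHT acted differently in the 2 genotypes was tested as an interaction, and 0 of 39 members passed, as did 0% of all genes, by an exact permutation test within genotype. That test assumes no DHT effect in either genotype, so a DHT effect widens its reference distribution, and a count of 0 does not show that the genotypes responded alike. At an unadjusted exact p under 0.05 there were 2 members, Acsl3 (p = 0.0461) and Fads1 (p = 0.0408), where 7.13% of all genes had such a p. The DHT difference at Acsl3 was -0.50 called regions in Control and 1.25 in SPOPmut, and at Fads1 1.25 in Control and -0.50 in SPOPmut.

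Tested singly, 38 of the 437 member regions differed between genotypes, 24 higher in SPOPmut (3.76% of all regions) and 14 lower (3.23%), where 6.99% of all 80352 regions tested passed in either direction. With DHT 5 member regions were gained (1.51% of all regions) and 0 lost (0.259%), at B4galt1, Stk39, Arid5b, Hpgd and Dbi, each at adjusted p = 0.0231 by the exact stratified test. Without Control EtOH replicate 2 or SPOPmut DHT replicate 2, 1 member region was called lower. These shares, 8.7% for genotype and 1.14% for DHT, stand beside the backgrounds of 6.99% and 1.77%. Regions called in all 4 libraries of a group and in none of the other were counted within each treatment and genotype. In EtOH, 25 member regions were so gained in SPOPmut (4.84% of all regions) and 19 lost (4.36%), and under DHT 34 were gained (6.41%) and 21 lost (4.22%). DHT gained 11 (2.93%) and lost 3 (1.96%) in Control, and gained 23 (4.7%) and lost 13 (1.98%) in SPOPmut. Ank alone held 7 of the 34 gained under DHT, and B4galt1 gained 3 with DHT in each genotype. Of the member regions, 209 (47.8%) were called in all 16 libraries, as were 48.9% of all regions. By place, 10.8% of member regions lay within 1 kb of a gene end, 45.8% in a gene body and 43.5% outside, and for all assigned regions these were 15.7%, 47.2% and 37.1%.

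The members together took 0.523% ± 0.00777 of a library's called regions in Control EtOH, 0.531% ± 0.00533 in Control DHT, 0.542% ± 0.00659 in SPOPmut EtOH and 0.531% ± 0.00824 in SPOPmut DHT (mean ± SD, n = 4 each). With EtOH the SPOPmut libraries (0.536 to 0.551%) lay above the Control libraries (0.511 to 0.528%), and with DHT the genotypes overlapped. Over both treatments the difference between genotypes was 0.00981 percentage points and that between DHT and EtOH -0.00105, and no test is given for a list whose members were proposed with results known. Both signs turned among the 30000 strongest peaks, at -0.0040 and 0.0222 points, and with lists of equal length the genotype difference was 0.001255 points.

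**Figure D5:**
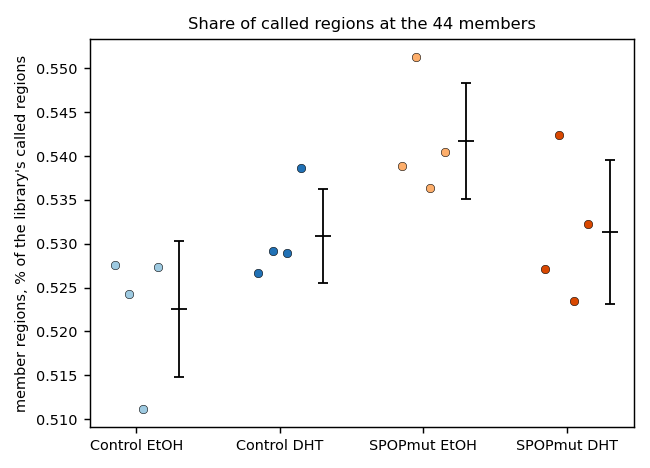
Member regions as a percentage of each library's called regions (y axis, not starting at 0), with each of the 4 libraries of a group as a point and the mean ± SD beside it. The SPOPmut libraries with EtOH, 0.536 to 0.551%, lie above the Control libraries with EtOH, and the DHT groups overlap.

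Other androgen response genes, a list of 57 of which 50 were tested, gave 16 higher (19.4% of all genes) and 6 lower (12.1%) in SPOPmut, 7 higher (5.41%) and 3 lower (3.14%) with DHT, and 0 for the interaction. Fkbp5, a steroid receptor cochaperone induced by androgen, had 7 ± 0.816 called regions in Control EtOH, 12.8 ± 0.957 in Control DHT, 8.5 ± 0.577 in SPOPmut EtOH and 16 ± 1.41 in SPOPmut DHT (mean ± SD, n = 4 each). Its DHT difference of 6.625 exceeds that of every member (exact adjusted p = 0.0119). Tmprss2, an androgen-driven protease gene, had 22 ± 0.816, 24 ± 0.816, 26.8 ± 0.50 and 29.5 ± 2.38 in the same order, and its DHT difference was 2.375 (exact adjusted p = 0.0417).

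Marker genes of cell types were counted in the same way, beside 19.4% of all genes higher and 12.1% lower in SPOPmut. Luminal epithelial markers summed to 32 to 40 called regions in Control EtOH, 37 to 39 in Control DHT, 44 to 49 in SPOPmut EtOH and 46 to 52 in SPOPmut DHT, with 5 of the 7 tested higher in SPOPmut and 0 lower. Basal markers, 7 genes, summed to 50 to 55, 56 to 60, 51 to 58 and 57 to 58 in the same order, overlapping between genotypes, with 2 higher and 1 lower. Endothelial markers, 6 genes, summed to 31 to 34, 29 to 32, 25 to 27 and 21 to 26, with 0 of 4 tested higher and 2 lower. Stromal markers, 9 genes with Col1a2 at 0, summed to 10 to 14, 11 to 13, 10 to 12 and 7 to 12, with 0 of 6 tested higher and 1 lower. Immune markers, 6 genes, gave 9 to 11, 6 to 9, 9 to 11 and 10 to 13, with 1 of 4 tested higher and 0 lower. Neuroendocrine markers, 5 genes with Insm1 at 0, gave 7 to 9, 4 to 7, 3 to 8 and 2 to 4, with 0 of 2 tested higher and 1 lower. The part of cell type makeup and of chromosome shifts in the members' genotype differences was not tested beyond the values given, and in these bulk cultures fewer cells with an open region and less access per cell cannot be told apart. Peak lists held 57245 to 69644 peaks, and the read depth behind them is unknown.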

How the data were processed

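ATAC-seq peak lists of 16 libraries were used. Per the submitters' processing notes, the tools were Bowtie2 2.3.4.1, SAMtools 1.8 and Genrich (version not given in the sources used here), with the mm10 build. The −log10 p of each peak is the authors' deposited value and served to rank peaks within a library. The signal column was deposited by the authors and served to break ties where the strongest peaks were chosen. It did not enter the percentiles, which gave tied peaks their average rank. Both columns depend on depth, which is unknown because no read counts were used. The pooled signal tracks were not analysed here.

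Merged regions called in at least 2 libraries (80352 of 86616) were assigned to the nearest gene body within 100 kb, with the shortest gene on ties, and the tests took genes holding 2 or more regions. Genotype and DHT were tested by exact two-sided permutation within the other factor (4900 arrangements, smallest p 0.000408), single regions by an exact stratified test, each with Benjamini-Hochberg adjustment, and the interaction by permuting treatment within genotype. The procedure was tested on simulated data. Members and gene lists were chosen with earlier results of these data known. Values are given for every member that passed a test and for the member with the most regions in each role group, and regions are named by the highest median −log10 p percentile per member and direction, at most 12 for each comparison. A gene's differences are means of whole counts.

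Alternatives were the distance to a gene (25 kb, or the gene body and 10 kb), all merged regions, lists of equal length (57245 peaks), the 30000 strongest peaks, at least 50% of a region covered, shares of called regions, a chromosome correction, replicate number as a block, and each library left out. The labels do not say whether libraries came from separate cultures or animals, so p-values measure the spread between these libraries. At most 0.774% of peaks were identical between 2 libraries. Python 3.11.15, NumPy 2.4.6, pandas 2.3.3, SciPy 1.17.1 and Matplotlib 3.10.9 were used.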

Additional observations from a re-analysis of the deposited data

Results flagged for a closer look

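Called regions of the 21 named genes and the list totals were examined for a library that stood apart from the other 3 of its group, by the gap between it and its nearest neighbour as a part of the group range. Of 92 groups examined, 30 held such a library, at 18 of the 21 genes, where chance gives about 1 in 20. The counts are small whole numbers, so 3 equal libraries and another that differs by 1 region already meet the criterion, and the wider gaps were at Lifr in Control DHT, Slc38a2 in Control EtOH and Stk39 in SPOPmut EtOH. In SPOPmut EtOH, Acsl3 had 5 in replicate 2 (median 4), Arid5b had 25 in replicate 2 (median 24), Fads1 had 8 in replicate 2 (median 7) and Hpgd had 11 in replicate 3 (median 10). In the same group, Iqgap2 had 2 in replicate 1 (median 1), Lifr had 3 in replicate 4 (median 4), Maf had 9 in replicate 2 (median 10) and Sec24d had 6 in replicate 1 (median 5). In the same group, Stk39 had 7 in replicate 2 (median 10). In Control DHT, Ank had 13 in replicate 2 (median 14), Hpgd had 13 in replicate 2 (median 14), Lifr had 5 in replicate 2 (median 7) and Sec24d had 4 in replicate 4 (median 3). In the same group, Uap1 had 5 in replicate 1 (median 6). In Control EtOH, Dbi had 4 in replicate 2 (median 5), Hpgd had 11 in replicate 3 (median 12), Iqgap2 had 4 in replicate 1 (median 3) and Lifr had 5 in replicate 3 (median 6). In the same group, Sec24d had 4 in replicate 3 (median 3), Slc26a2 had 3 in replicate 2 (median 2), Slc38a2 had 12 in replicate 1 (median 10) and Sord had 2 in replicate 2 (median 3). In the same group, Steap4 had 4 in replicate 1 (median 3). In SPOPmut DHT, Fads1 had 6 in replicate 3 (median 7), Iqgap2 had 1 in replicate 4 (median 0), Ptpn21 had 4 in replicate 2 (median 5) and Slc26a2 had 2 in replicate 2 (median 3). In the same group, Sord had 5 in replicate 4 (median 4), Stk39 had 10 in replicate 2 (median 11) and Vapa had 4 in replicate 2 (median 5). No gene named here lost its call without 1 library except Stk39, given in the report.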

How the results depend on the processing

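Read depth is unknown, and counts of whole regions limit what a member with few regions can show. No share over all genes is given beside the counts under these settings. As shares of called regions, 29 members passed for genotype (16 lower) and 12 for DHT (6 lower), and groups apart were 12 (lower in SPOPmut DHT), 6 and 3 (higher and lower with DHT in Control) and 5 (lower with DHT in SPOPmut). With the chromosome correction DHT gave 12 (6 lower), and 6 and 2 members were apart in Control and 5 lower in SPOPmut. With lists of equal length 13 members were lower in SPOPmut, 3 lower with DHT, 9 apart lower in SPOPmut DHT and 2 lower with DHT in Control, 15 regions were higher in SPOPmut, and the genotype difference in list share was 0.001255 points. With the 30000 strongest peaks 3 members were lower with DHT, 3 and 3 apart lower in SPOPmut EtOH and DHT, 7 and 2 apart with DHT in Control, 8 regions were higher in SPOPmut and 2 lower with DHT, and the list share differed by -0.0040 (genotype) and 0.0222 points (DHT). With 50% of a region covered 10 members were lower in SPOPmut and 1 was apart lower with DHT in SPOPmut. With all merged regions 1 was apart higher with DHT in Control. With the gene body and 10 kb, 3 members were higher and 2 lower with DHT, 2 were apart lower in Control, and the genotype difference in list share was 0.01935 points. Within 25 kb these were 1 apart higher and 2 lower in Control, and 0.0211 points.

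With replicate number as a block, 11 members passed for genotype (7 higher) and 0 for DHT (0 higher and 0 lower; 11 at an unadjusted p under 0.05 without the block). The block allows 256 arrangements and a smallest p of 0.00781. By the criterion that every pair correlates over 0.1, the numbers were not taken to pair the libraries, though some shared variation by number is present: same-numbered libraries correlated at -0.0658 to 0.328 between genotypes and -0.266 to 0.376 between treatments, over 0.1 in 4 of 8 pairs each, and 3 and 4 of 8 correlated best with their own number. Mean correlations were 0.132 and 0.0877 for the same number, against -0.0437 and -0.0288 for other numbers, and replicate 2 had the fewest peaks in all 4 groups.

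Direction reversed for Hpgd by genotype within 25 kb (0.50), and with the 30000 strongest peaks for Maf (0.25) and Ptpn21 (-0.875) by genotype and Uap1 by DHT (-0.625); the cause was not tested. Without 1 library at a time, counts were 17 to 21 for genotype and 5 to 7 for DHT, 1 to 2 lower with DHT, 2 to 5 higher and 1 to 5 lower apart with DHT in Control, 3 to 5 lower apart in SPOPmut, and 0 to 1 regions lower with DHT. The genotype calls of Ank, Slc38a2, Sord, Steap4, Iqgap2 and Vapa held under every setting that could be fitted and without each library.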

Other observations

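Abcc4, an efflux pump gene, held regions that differed in both directions between genotypes. Of its 43 regions, 22 were called in all 16 libraries, 4 were gained and 4 were lost in SPOPmut by the exact stratified test. The strongest lost region lay 91659 bp outside the gene body (chr14:118390810-118391257, percentile 68.0) and was called in 8 of 8 Control and 0 of 8 SPOPmut libraries. The strongest gained region lay in the gene body, 63873 bp from the nearest start (chr14:118612788-118613328, percentile 51.9), and was called in 0 of 8 Control and 8 of 8 SPOPmut libraries. In EtOH alone, 3 regions of Abcc4 had a call in every SPOPmut library and in no Control library, and 6 the reverse.

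The regions nearest to the 100 kb limit were at Rps6ka3 (99821 bp) and Hpgd (99932 bp) inside it, and at Hpgd (101873 bp) and Maf (105672 bp) outside it. The region of Maf was called in 8 libraries and the other 3 in all 16.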
